A study of Homo sapiens with 6 samples.

Results

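The 10 genes described here are the cadherins *CDH1*, *CDH2* and *CDH3*, the adhesion molecule *EPCAM*, vimentin (*VIM*), fibronectin (*FN1*), the transcription factors *SNAI2*, *ZEB1* and *ZEB2*, and the splicing regulator *ESRP1*. They were taken by symbol as epithelial and mesenchymal markers and their regulators. All 10 were found among the 21475 genes of the deposited tables, and 7 of them averaged 0.5 FPKM or more over the 6 libraries and entered the test. FPKM scales fragments by gene length and library size, so levels of different genes can be set beside each other. RNA came from 3 WT and 3 *FGFR2* KO lines of HaCaT, a spontaneously immortalized human keratinocyte line, with 1 library per line. The KO lines were made by nucleofection with Cas9 and a guide RNA against an *FGFR2* exon and were grown from single sorted cells. The WT lines carried no *FGFR2* edit, and the study describes the sequenced ones as clonally expanded, while its WT lines as a set also included the starting population. The labels do not say which line each replicate is. No growth factor, cytokine or other stimulus is given in the labels for either group, and both were grown in medium with serum. Where 3 values are given for a group, they are in the order of replicates 1, 2 and 3. Each line stands for its genotype only together with whatever else distinguishes that clone.

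Epithelial cells hold together through adherens junctions, in which E-cadherin (*CDH1*) and, in basal keratinocytes, P-cadherin (*CDH3*) bind the same protein on the neighbouring cell and are anchored to actin through catenins. In epithelial-mesenchymal transition, E-cadherin is lost, N-cadherin (*CDH2*), vimentin and fibronectin are gained, and factors of the SNAI and ZEB families repress epithelial genes. *SNAI2* is also a normal gene of basal keratinocytes. ESRP1 keeps the epithelial splice forms of several genes, among them the 3b form of *FGFR2*, the receptor of FGF7.

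The targeted gene, *FGFR2*, was at 21.6, 39.7 and 15.0 FPKM in the WT lines and at 3.04, 2.26 and 4.31 FPKM in the KO lines, so the libraries went with their labels. Depth, read from the steps between low FPKM values, was between 67900000 and 88200000 fragments per library. Mitochondrial genes took 21.5% to 27.6% of the FPKM in WT and 11.9% to 23.7% in KO libraries. All 13 keratinocyte markers were expressed, with a lowest mean of 131 FPKM, while 3 of 10 fibroblast markers reached a mean of 0.5 FPKM, namely *COL1A1* (6.82 to 16.7 FPKM), *DCN* and *TWIST2*. The fibroblast list summed to 8.35 to 33.8 FPKM in WT and 8.59 to 13.2 FPKM in KO libraries, with *PDGFRB* at no more than 0.041 FPKM; WT replicate 2 was highest, with 15.5 FPKM of *DCN*. The melanocyte, endothelial and leukocyte lists each had 2 genes at a mean of 0.5 FPKM or more. Their highest genes were *MITF*, *VWF* and *CD68*, at means of 2.61, 17.2 and 11.3 FPKM. In the same order, the lists summed to 3.06 to 5.58, 18.1 to 27.2 and 12.5 to 22.3 FPKM in WT. In KO libraries they summed to 1.24 to 4.86, 5.82 to 17.5 and 5.27 to 11.7 FPKM. *SOX10*, *KDR* and *CLDN5* were listed at 0 in all libraries.

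The 6 libraries showed an epithelial pattern in both genotypes. *CDH3*, *CDH1*, *EPCAM* and *ESRP1* were among the most abundant transcripts, *SNAI2* lay in the middle of the expressed genes, and *VIM*, *ZEB1* and *ZEB2* were at or near 0. No member was called between KO and WT. *CDH1* was lower in every KO library than in any WT library by a small amount, *CDH2* was higher in KO replicates 2 and 3, and *FN1* differed more between lines of the same genotype than between the genotypes.

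**Figure D1:**
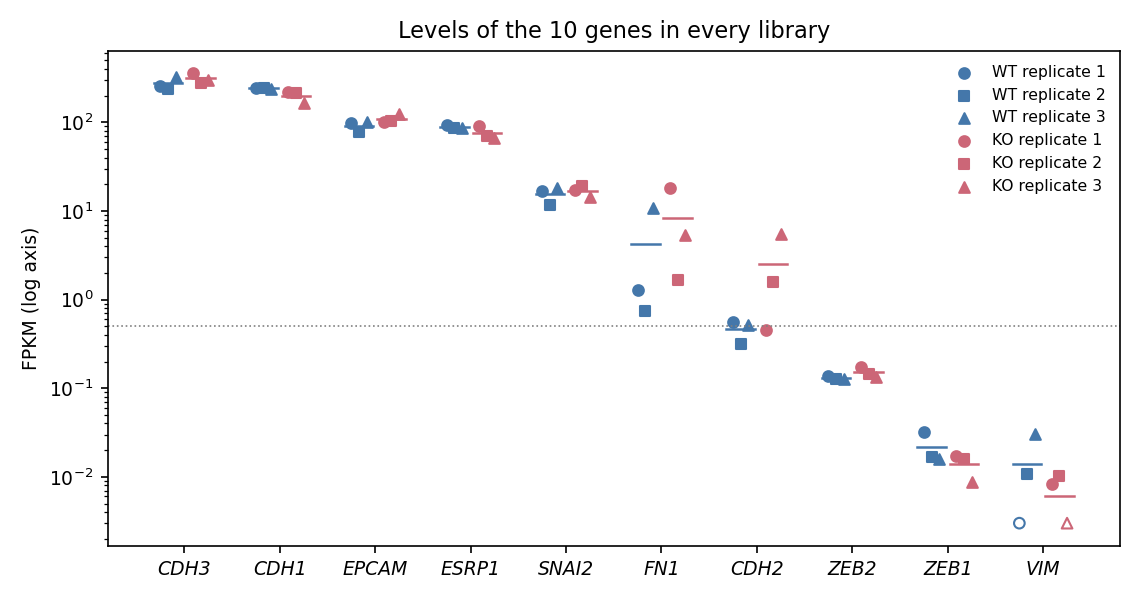
FPKM of the 10 genes on a log axis, 1 point per library (blue WT, red KO, the marker shape gives the replicate number), with the group mean as a bar; the dotted line is the 0.5 FPKM minimum for the mean, and open symbols at the bottom stand for a value listed at 0. *CDH3* and *CDH1* lie between 166 and 358 FPKM, and *VIM* does not exceed 0.0306 FPKM.

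In limma's moderated test on log2(FPKM + 0.5), 0 of the 7 tested members passed a Benjamini-Hochberg adjusted p of 0.05 together with a log2 fold change of 0.5 in either direction. Among all 12241 tested genes this was also 0 (0%), with a smallest adjusted p of 0.261. The targeted gene *FGFR2*, at 12.6% of WT in KO, was not called either (log2 fold change -2.73, adjusted p = 0.261 with limma). The lack of a call therefore does not mean the lack of a difference. Without adjustment, at a p up to 0.05 and the same fold change, 1251 genes (10.2%) were higher and 285 (2.33%) lower in KO, and 0 members were among them. With median-of-ratios scaling between libraries these counts were 785 and 521. The median log2 fold change of all tested genes was 0.09 on the deposited values and -0.02 with that scaling, so small differences are given below also relative to the median gene. An exact two-sided permutation test of 3 against 3 libraries cannot give a p under 0.1. Since nothing says that the 3 libraries of a group were cultured at separate times, the p-values measure the spread between these lines.

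E-cadherin (*CDH1*, ENSG00000039068) lies on chromosome 16 from 68737292 to 68835537 in GRCh38, on the plus strand, and its main (MANE Select) transcript has 16 exons. It was expressed at 243, 246 and 235 FPKM in the WT lines, and at 222, 213 and 166 FPKM in the KO lines. The groups did not overlap, and KO replicate 3 lay farthest below the WT libraries. Of the 7 tested members 1 lay below in this way, against 5.77% of all tested genes, and 0 lay above, so that 1 of 7 was separated in either direction, against 24.1% of all tested genes. The WT mean was 241 ± 5.79 FPKM and the KO mean 200 ± 30.3 FPKM (SD, n = 3 each), or 83.1% of WT. The log2 fold change was -0.28 (standard error 0.15, 95% interval -0.64 to 0.08, adjusted p = 0.386 with limma; exact permutation p = 0.1). Relative to the median gene the difference was -0.37, and without KO replicate 3 the log2 fold change was -0.15. In RNA from whole cultures, fewer cells with a transcript and less of it per cell cannot be told apart.

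P-cadherin (*CDH3*, ENSG00000062038) is the gene next to *CDH1*, on chromosome 16 from 68636189 to 68727468, with 9823 bases between them. Its level was 259, 239 and 327 FPKM in the WT lines, and 358, 279 and 301 FPKM in the KO lines. KO replicate 1 and WT replicate 3 were highest and the groups overlapped. On average WT had 275 ± 46.1 FPKM and KO 313 ± 40.7 FPKM (SD, n = 3 each), a log2 fold change of 0.19 (95% interval -0.22 to 0.60, adjusted p = 0.598 with limma), or 0.10 relative to the median gene. It was 0.09 without KO replicate 1 and 0.32 without WT replicate 3. The neighbours thus had mean differences of opposite sign, neither past the threshold. The log2 differences from the WT mean of the tested genes of chromosome 16 had a median within 0.05 of that of all tested genes in each KO library.

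The ratio of 2 genes within a library does not move with the scaling of that library. For every unit of *CDH3*, *CDH1* was at 0.938, 1.03 and 0.717 in the WT lines and at 0.622, 0.764 and 0.551 in the KO lines. *CDH1* exceeded *CDH3* only in WT replicate 2 among the 6 libraries. The ratio overlapped between the groups because WT replicate 3 lay below KO replicate 2. On the log2 scale the mean was -0.18 ± 0.27 in WT and -0.64 ± 0.24 in KO (SD, n = 3 each), a difference of -0.47 (exact permutation p = 0.2).

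*EPCAM* (ENSG00000119888), on chromosome 2 from 47345158 to 47387601, encodes an adhesion protein of simple epithelia and of carcinomas that is scarce in resting interfollicular epidermis. These lines expressed it at 97.6, 77.0 and 100.3 FPKM in the WT lines, and at 99.5, 104 and 126 FPKM in the KO lines. KO replicate 3 was highest and WT replicate 2 lowest, and KO replicate 1 fell among the WT libraries. The log2 fold change was 0.26 (95% interval -0.11 to 0.64, adjusted p = 0.426 with limma), or 0.18 relative to the median gene. It was 0.14 without WT replicate 2 and 0.33 without WT replicate 3.

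*ESRP1* (ENSG00000104413), on chromosome 8 from 94641074 to 94707466, was at 94.0, 85.9 and 87.0 FPKM in the WT lines, and at 90.6, 69.3 and 67.2 FPKM in the KO lines. KO replicates 2 and 3 lay below every WT library, and KO replicate 1 lay within the WT range. The WT mean was 89.0 ± 4.40 FPKM and the KO mean 75.7 ± 12.9 FPKM (SD, n = 3 each), or 85.1% of WT. The log2 fold change was -0.24 (95% interval -0.60 to 0.11, adjusted p = 0.433 with limma), or -0.33 relative to the median gene, and it was -0.38 without KO replicate 1. In the order of levels, *EPCAM* and *ESRP1* overlapped within WT, and *EPCAM* lay above *ESRP1* in each KO library. The related *ESRP2*, chosen for its function, averaged 79.4 FPKM in the WT and 75.8 FPKM in the KO lines, with overlapping groups. *RBFOX2*, a splicing factor linked to mesenchymal splice forms, was at 90.5, 92.3 and 86.8 FPKM in WT and 69.5, 83.0 and 73.2 FPKM in the KO lines, all below WT (log2 fold change -0.26, adjusted p = 0.336 with limma).

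**Figure D2:**
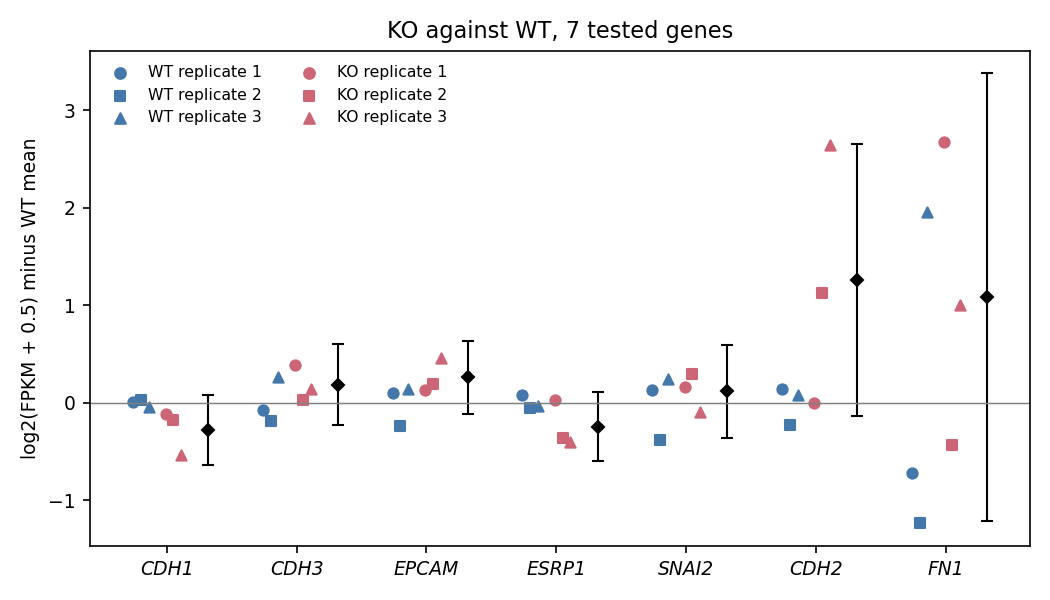
Difference of log2(FPKM + 0.5) from the WT mean for the 7 tested members, 1 point per library (blue WT, red KO, the marker shape gives the replicate number); black diamonds with bars are the KO minus WT log2 fold change and its 95% interval from limma. *CDH1*, *CDH3*, *EPCAM*, *ESRP1* and *SNAI2* stay within 0.6 of the WT mean, while *FN1* spreads from -1.23 to 2.68 and every interval includes 0.

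*SNAI2* (ENSG00000019549), on chromosome 8 from 48917598 to 48921740, encodes the zinc finger repressor Slug. It was expressed at 16.9, 11.6 and 18.3 FPKM in the WT lines, and at 17.2, 18.9 and 14.3 FPKM in the KO lines. WT replicate 2 was lowest and the groups overlapped throughout. The log2 fold change was 0.12 (95% interval -0.36 to 0.60, adjusted p = 0.779 with limma), or 0.03 relative to the median gene, and it was -0.07 without WT replicate 2. In each library *SNAI2* ranked above 41.7% to 54.8% of the tested genes.

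*ZEB1* and *ZEB2*, the other repressors of E-cadherin among the members, did not reach the minimum level. *ZEB1* (ENSG00000148516), on chromosome 10 from 31318495 to 31529814, was at 0.0324, 0.0166 and 0.0157 FPKM in the WT lines, and at 0.0172, 0.0160 and 0.00865 FPKM in the KO lines. Its values were close to whole multiples of a common step, within 0.1 of a step after depth was allowed for, and stand for about 2 to 7 fragments per library if 1 step is 1 fragment. On the length of its MANE Select transcript they would be about 4 to 16 fragments. *ZEB2* (ENSG00000169554), on chromosome 2 from 144364364 to 144521057, was at 0.136, 0.126 and 0.127 FPKM in WT and 0.172, 0.146 and 0.134 FPKM in the KO lines, about 79 to 141 fragments on the length of its MANE Select transcript. The groups overlapped for both, and in a fit without the minimum level their adjusted p was 0.695 and 0.594 with limma. *SNAI2* was at 522 to 1161 times the FPKM of *ZEB1* in WT and at 997 to 1659 times in KO libraries. On the log2 scale with the pseudocount, this ratio differed by 0.14 between the genotypes (exact permutation p = 0.6).

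*VIM* (ENSG00000026025), on chromosome 10 from 17228241 to 17237593, encodes the intermediate filament protein of mesenchymal cells. It was listed at 0 in WT replicate 1 and KO replicate 3, at 0.0108 and 0.0306 FPKM in WT replicates 2 and 3, and at 0.00827 and 0.0102 FPKM in KO replicates 1 and 2. Chromosome 10 carries *VIM*, *ZEB1* and the targeted *FGFR2*. The median log2 difference of its tested genes from the WT mean was taken relative to that of all tested genes. It was 0.02, 0.14 and -0.16 in the WT lines, and -0.43, -0.16 and -0.19 in the KO lines. After depth was allowed for, the lowest value above 0 and the highest stood at 1 and 3 steps. The *VIM* values thus correspond to at most about 3 fragments in a library if 1 step is 1 fragment. On the length of its MANE Select transcript they would be at most about 5. At this depth 3 such steps would give 0.0248 to 0.0322 FPKM. No fold change is given for levels this low, and the adjusted p without the minimum level was 0.762 with limma. Of 10 genes used by every cell, such as *ACTB* and *GAPDH*, 0 were listed at 0 in any library. With *VIM* near 0, the ratio of *CDH1* to *VIM* on the scale with the pseudocount followed *CDH1*, with a difference of -0.26 between KO and WT (exact permutation p = 0.1).

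N-cadherin (*CDH2*, ENSG00000170558) lies on chromosome 18 from 27932879 to 28177946, on the minus strand. It was at 0.560, 0.317 and 0.514 FPKM in the WT lines, and at 0.459, 1.59 and 5.50 FPKM in the KO lines. KO replicates 2 and 3 lay above all WT libraries, whereas KO replicate 1 lay within the WT range. The WT mean of 0.464 ± 0.129 FPKM (SD, n = 3) was under the minimum of 0.5 FPKM, and the gene entered the test only through the KO libraries, where the mean was 2.52 ± 2.65 FPKM (SD, n = 3). The log2 fold change of 1.26 (standard error 0.60, 95% interval -0.14 to 2.66) was not past the threshold (adjusted p = 0.327 with limma). It was 0.57 without KO replicate 3 and 1.89 without KO replicate 1. Within KO the highest line had 12.0 times the level of the lowest, against 1.77 times within WT.

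*CDH1* remained the far more abundant cadherin in each line. It was at 434, 775 and 456 times the FPKM of *CDH2* in the WT lines, and at 485, 134 and 30.1 times in the KO lines. The line with the most *CDH2*, KO replicate 3, also had the least *CDH1*. On the log2 scale with the pseudocount the mean ratio was 7.98 ± 0.22 in WT and 6.44 ± 1.55 in KO (SD, n = 3 each; difference -1.54, exact permutation p = 0.3; -0.71 without KO replicate 3 and -2.25 without KO replicate 1), with KO replicate 1 at 7.86 beside 7.84 and 7.86 in WT replicates 1 and 3. The fibroblast marker list summed to 12.2, 13.2 and 8.59 FPKM in the KO lines, and *TWIST2* of that list was highest in KO replicate 3, at 1.64 FPKM. Their part in the level of *CDH2* was not tested.

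Fibronectin (*FN1*, ENSG00000115414), a matrix glycoprotein, lies on chromosome 2 from 215360440 to 215436073, on the minus strand, and its MANE Select transcript has 46 exons. It was at 1.28, 0.744 and 10.8 FPKM in the WT lines, and at 18.2, 1.67 and 5.36 FPKM in the KO lines. High and low lines occurred in both genotypes, so that the highest line had 14.6 times the level of the lowest within WT and 10.9 times within KO. Its spread within groups, a pooled SD of 1.64 on the log2 scale, was larger than that of 99.6% of the tested genes, whose median was 0.24. For *CDH2* the pooled SD was 0.95, larger than that of 97.5% of the tested genes, and for *CDH1* it was 0.16, larger than that of 24.6%. The log2 fold change of *FN1* was 1.08 (standard error 0.99, 95% interval -1.22 to 3.38, adjusted p = 0.587 with limma). It ranged from 0.29 without KO replicate 1 to 2.06 without WT replicate 3. In the fibroblast marker list, KO replicate 1, highest in *FN1*, had the highest *LUM* (1.85 FPKM) and 1.66 FPKM of *DCN*, while its *COL1A1* was at 7.67 FPKM; WT replicate 3 had a list sum of 8.35 FPKM, the lowest of the 6. Their part in the level of *FN1* was not tested.

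Promoter sequences, from RefSeq on GRCh38.p14, were found for 5 of the 10 members (*CDH2*, *VIM*, *FN1*, *ZEB1* and *ZEB2*), and not for *CDH1*, *CDH3*, *EPCAM*, *SNAI2* or *ESRP1*. The 250 bases before the start are shown for *FN1*, the member that varied most between lines, and for *VIM* and *ZEB1*, which were close to 0; for *ZEB1*, with 7 entries, the one nearest the start of the GENCODE gene was taken. Capitals mark CAGGTG and its reverse complement CACCTG, the E-box bound by SNAI and ZEB factors, and TGACGTCA, the cAMP response element bound by CREB and ATF proteins, which reads the same on both strands. The second motif was chosen after the values had been seen.
FN1, chr2:215436069-215436318, minus strand: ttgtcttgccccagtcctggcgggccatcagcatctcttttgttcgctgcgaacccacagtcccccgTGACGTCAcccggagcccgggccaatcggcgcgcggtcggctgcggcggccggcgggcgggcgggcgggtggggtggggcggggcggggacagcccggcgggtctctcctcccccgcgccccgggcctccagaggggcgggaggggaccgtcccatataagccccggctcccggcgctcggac
VIM, chr10:17227991-17228240, plus strand: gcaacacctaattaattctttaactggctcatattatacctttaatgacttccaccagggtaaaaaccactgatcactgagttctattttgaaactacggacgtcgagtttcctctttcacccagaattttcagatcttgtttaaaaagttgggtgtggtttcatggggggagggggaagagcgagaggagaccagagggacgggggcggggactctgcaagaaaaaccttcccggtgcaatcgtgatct
ZEB1, chr10:31318167-31318416, plus strand: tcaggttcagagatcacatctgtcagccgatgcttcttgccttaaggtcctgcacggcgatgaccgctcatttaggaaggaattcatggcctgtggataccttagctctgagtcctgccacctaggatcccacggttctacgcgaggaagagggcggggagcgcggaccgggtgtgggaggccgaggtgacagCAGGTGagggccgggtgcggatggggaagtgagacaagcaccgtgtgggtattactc
The cAMP response element occurred once before *FN1*, beginning 183 bases before the start, and in 1.65% of the 35116 promoters of the table. The E-box occurred once before this *ZEB1* start, 57 bases from it, and in 17.5% of all promoters, and the motifs did not overlap. Of the other *ZEB1* entries, 1 held 2 such E-boxes and the rest held none. The 250 bases before *VIM* held neither motif. They held 8 CpG dinucleotides, against 32 before *FN1*, 15 before *ZEB1* and a median of 11 over all promoters. A match of letters is not evidence of binding.

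The genes whose levels went most closely with *FN1* over the 6 libraries, by Pearson's r of log2(FPKM + 0.5) among 8494 genes with an SD of at least 0.2, were *SLC2A3* (r = 0.995), *CHAC1* (r = 0.995), *SH3KBP1* (r = 0.991), *ATF4* (r = 0.990) and *MFSD2A* (r = 0.986). *ATF4* encodes the transcription factor of the integrated stress response, *CHAC1* is a known target of it, and *SLC2A3* encodes a glucose transporter. *SLC2A3* was low, at 0.112, 0.0626 and 1.24 FPKM in the WT lines and 1.86, 0.185 and 0.602 FPKM in the KO lines. Some of these values lay under the pseudocount of 0.5. *ATF4* was at 152, 153 and 209 FPKM in the WT lines and at 229, 163 and 185 FPKM in the KO lines. WT replicate 3 and KO replicate 1 were highest in *ATF4* as in *FN1*, and KO replicate 3 came next in both. With only 6 libraries many genes follow any pattern, and 45 genes had an r of at least 0.95 with *FN1*. The values of a library share its depth and scaling.

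**Figure D3:**
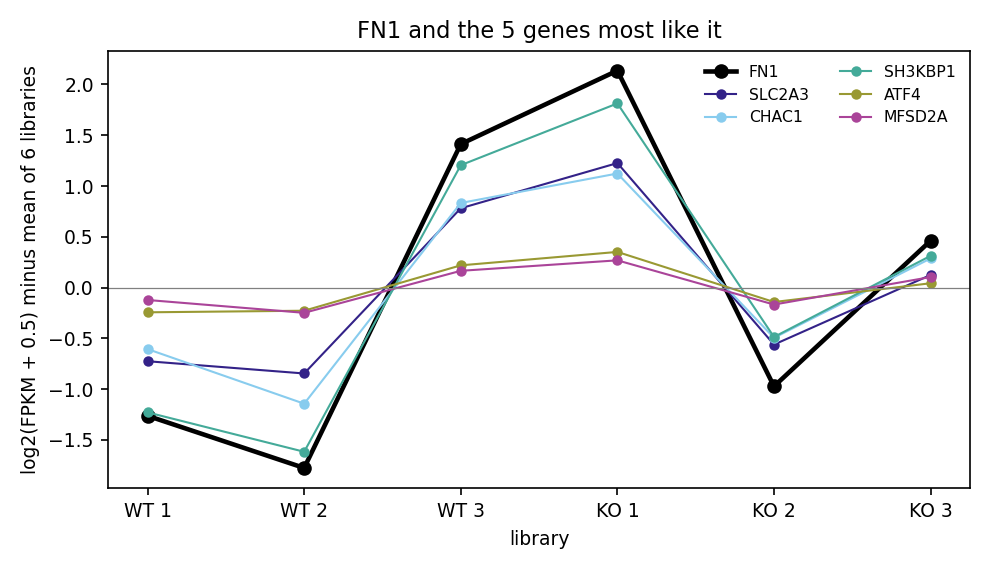
Log2(FPKM + 0.5) minus the mean of the 6 libraries, for *FN1* (black, thick) and the 5 genes with the highest Pearson's r to it (colours), with the libraries along the horizontal axis; the lines only join the points of a gene. All 6 genes have their highest value in KO replicate 1 and their next highest in WT replicate 3.

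For *CDH1* the closest genes by the same measure were *BCL6* (r = 0.994), *CDKN2B* (r = 0.993), *CDK19* (r = 0.992), *GSTA4* (r = 0.991) and *FBXO32* (r = 0.991), and 111 genes had an r of at least 0.95. *BCL6* encodes a transcriptional repressor and *CDKN2B* the cell cycle inhibitor p15. *BCL6* was at 27.3 to 31.7 FPKM in WT and 24.5, 19.4 and 6.45 FPKM in the KO lines, and *CDKN2B* at 36.6, 47.5 and 36.1 FPKM in WT and 25.1, 21.4 and 7.07 FPKM in KO. Both had their lowest level in KO replicate 3, as *CDH1* had. *CDH2*, added after its values had been seen, went most closely with *ACOT11*, *TIMM23*, *SPAG1* and *WRAP73* (r = 0.994 to 0.993), each of them highest in KO replicate 3. The same measure was not used for *VIM*, which was at or near 0.

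Genes around the members were read from 7 lists, in which 0 genes were called. On the deposited values 60.6% of all tested genes had a log2 fold change above 0. The median of all tested genes was 0.09 on these values and -0.02 with median-of-ratios scaling, so counts of higher and lower means depend on the scaling. The most abundant gene of a list is the one with the highest mean over the 6 libraries. Of the catenins, nectins and other partners of E-cadherin at adherens junctions, 9 of 10 were tested, 2 had a higher and 7 a lower mean in KO. Their median log2 fold change was -0.12, against 0.09 over all tested genes. The groups overlapped for each of the 9, while 24.1% of all tested genes were separated in either direction. The most abundant was plakoglobin (*JUP*), which links cadherins to the cytoskeleton, at 1459 FPKM in WT and 1425 FPKM in KO.

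Of 16 other classical and related cadherins, 6 were tested and the groups overlapped for each, while 24.1% of all tested genes were separated. Their median log2 fold change was 0.27. This median includes *CDH11* (mean 0.248 FPKM in WT, 0.808 FPKM in KO) and *CDH5* (1.69 FPKM in WT, 0.0839 FPKM in KO). Both entered the test only through the group where they were higher, *CDH5* through WT replicate 2 at 4.92 FPKM. The most abundant of the 6 was *CDH13*, the cadherin anchored to the membrane by lipid, at 83.3 FPKM in WT and 102 FPKM in KO. *CDH4* (R-cadherin), close in sequence to N-cadherin, was at 2.52, 2.44 and 3.68 FPKM in WT and 5.68, 3.42 and 7.07 FPKM in the KO lines. The groups overlapped, since KO replicate 2 lay below WT replicate 3, and the log2 fold change was 0.77 (unadjusted p = 0.0274, adjusted p = 0.264 with limma).

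Of 9 further transcription factors of epithelial-mesenchymal transition, 4 were tested and the groups overlapped for each, while 24.1% of all tested genes were separated. Of the 4, 1 had a higher and 3 a lower mean in KO (median -0.32). The higher one, *TWIST2*, had a mean of 0.429 FPKM in WT and 1.03 FPKM in KO, and entered the test only through the KO libraries. The most abundant of the 4 was *TCF4*, at 7.43 FPKM in WT and 6.18 FPKM in KO, close to *KLF8*, at 7.96 FPKM in WT and 5.59 FPKM in KO. *SNAI1* and *TWIST1*, named for their function, stayed at or below 0.040 and 0.285 FPKM in all libraries.

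Among 10 regulators of epithelial identity, 9 were tested, 2 had a higher and 7 a lower mean in KO, and the median was -0.09. The 7 include *RBFOX2*, which is linked to mesenchymal splice forms, so they are not all epithelial factors. It was the 1 of 9 with all KO below all WT libraries, against 5.77% of all tested genes. *ELF3*, an epithelial ETS factor and the most abundant of the list, was at 116, 358 and 77.4 FPKM in WT and 45.9, 108 and 21.0 FPKM in the KO lines. KO replicate 2 exceeded WT replicate 3, so the groups overlapped, and WT replicate 2 set the rank of the gene. In KO its mean of 58.2 FPKM lay below that of *ESRP2*. Between the genotypes its log2 fold change was -1.64 (unadjusted p = 0.0485, adjusted p = 0.295 with limma). *GRHL2*, a factor that maintains *CDH1* expression in epithelia, was the 1 tested gene of this list with all KO above all WT libraries, at 48.5, 51.0 and 50.4 FPKM in WT and 56.8, 53.0 and 66.8 FPKM in KO (log2 fold change 0.23, adjusted p = 0.408 with limma), where 18.3% of all tested genes lay above.

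All 9 partners and sheddases of EpCAM and E-cadherin were tested, with a median of -0.03. *PSEN2* lay above WT in all KO lines and *CD9* below (log2 fold change -0.46). This was 1 of 9 each way, against 18.3% and 5.77% of all tested genes. *CD44*, the most abundant, was at 1119 FPKM in WT and 1022 FPKM in KO. *PSEN2*, a subunit of the γ-secretase that cuts shed adhesion proteins, was at 0.819, 1.22 and 0.453 FPKM in WT and 2.07, 1.53 and 2.56 FPKM in the KO lines, all above WT. Its log2 fold change was 0.96 (unadjusted p = 0.0113, adjusted p = 0.261 with limma).

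Of 20 mesenchymal matrix and contractile genes, 12 were tested, 5 had a higher and 7 a lower mean in KO, and the median was -0.14. In this list *TNC* lay above WT in all KO lines and *S100A4* below, 1 of 12 each way, against 18.3% and 5.77% of all tested genes. *TNC* was at 9.70, 1.67 and 6.88 FPKM in WT and 9.74, 10.96 and 48.6 FPKM in the KO lines. KO replicate 1 and WT replicate 1 were almost equal, and KO replicate 3 was by far the highest. The log2 fold change of *TNC* was 1.71 (adjusted p = 0.298 with limma). *MMP2*, a gelatinase and the most abundant of the 12 over both genotypes, was at 69.9 FPKM in WT and 107 FPKM in KO with overlapping groups, while *S100A4* was at 91.6 FPKM in WT and 69.9 FPKM in KO. Of the fibroblast genes, *COL1A1* was at 15.0, 16.7 and 7.66 FPKM in WT and 7.67, 12.2 and 6.82 FPKM in KO, and *SPARC* ranged from 0.856 to 22.4 FPKM, whereas *COL1A2*, *COL3A1* and *POSTN* did not exceed 0.0638 FPKM in any library.

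Of 10 integrin subunits of fibronectin receptors, 8 were tested, 4 had a higher and 4 a lower mean in KO, and the median was 0.03. *ITGB5* lay above WT in all KO lines, and *ITGB6* and *ITGB8* lay below. This was 1 of 8 above and 2 of 8 below, against 18.3% and 5.77% of all tested genes. *ITGB8* was separated only narrowly, with KO replicate 3 at 14.0273 FPKM and WT replicate 2 at 14.0284 FPKM. Its log2 fold change was -0.12 (adjusted p = 0.642 with limma). *ITGA3* was the most abundant, at 313 FPKM in WT and 345 FPKM in KO. *ITGA5*, the α subunit of the classical fibronectin receptor, was at 1.5, 2.85 and 4.59 FPKM in WT and 7.71, 4.58 and 5.38 FPKM in the KO lines. KO replicate 2 and WT replicate 3 were almost equal, and the log2 fold change was 0.95 (unadjusted p = 0.0299, adjusted p = 0.268 with limma). *ITGB6*, the β subunit of an epithelial integrin induced in wounds, was at 20.5, 20.5 and 15.4 FPKM in WT and 13.3, 13.3 and 12.2 FPKM in KO, all below WT (log2 fold change -0.51, unadjusted p = 0.0133, adjusted p = 0.261 with limma). In total 5 genes of the 7 lists passed a p of 0.05 without adjustment and a log2 fold change of 0.5, 3 higher and 2 lower in KO, out of 57 tested, against 10.2% and 2.33% of all tested genes.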

How the data were processed

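The authors trimmed paired-end reads from poly(A)-selected stranded libraries with fastp 0.20.0, quantified them by pseudoalignment with Kallisto 0.46.1 (GRCh38, GENCODE annotation), and used DESeq2 for their own comparison; these versions are from the methods and the submitters' processing notes. The values the authors deposited are FPKM, and how they were derived from the Kallisto estimates is not given in the sources used here. Of 21493 genes per table, 18 Y copies of pseudoautosomal genes, identical to their X copies, were left out. Symbols and positions are from GENCODE release 44.

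Depth was estimated from the value of 1 fragment in 4316 genes with a single transcript; 65.7% to 69.2% of low values were whole fragments within 0.02, so counts were not rebuilt and count models were not run. Precision for low genes is limited by these counts.

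The test, on log2(FPKM + 0.5) for genes averaging 0.5 FPKM or more, was limma 3.58.1 (R 4.3.3) with a mean-variance trend and Benjamini-Hochberg adjustment. Called means an adjusted p up to 0.05 together with a log2 fold change of 0.5 in either direction. On this scale a fold change understates the change of low genes. The fit was tested on simulated data with 200 planted changes, each larger than any log2 fold change of the tested members. That test says nothing on differences of the size seen in the members. Ratios were tested by exact permutation with scipy 1.17.1.

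The members and lists were chosen with earlier results of these data known. Named are the members, *FGFR2*, of each list the most abundant gene and those past a p of 0.05 without adjustment and a log2 fold change of 0.5, and for *CDH1* the 5 most similar genes; the rule also asked for those of *VIM*, which was too low. *FN1* and *CDH2* were added to the last after their values were seen, as was any other gene named. For *CDH2*, 1 of the 5 is not reported here. Alternatives were other pseudocounts, minimum levels, scalings and variance settings, library weights, the replicate number as a block, and leaving out each library.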

Additional observations from a re-analysis of the deposited data

How the results depend on the processing

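No gene was called in 16 of 17 alternatives. The exception was library weights, with 1396 genes called (1160 higher and 236 lower in KO), in a fit that gave WT replicate 1 89.7% of the weight of the WT group. *FGFR2* was called in that fit only (adjusted p = 0.0191 with limma). Among the 7 lists and the members, 5 genes were then called, *CDH4*, *ITGA5*, *OVOL1* and *PSEN2* higher and *ITGB6* lower, and 0 of the 10 members. The members kept the sign of their log2 fold change in each alternative that tested them, except *SNAI2*, which ranged from -0.071 (without WT replicate 2) to 0.24 with 1 library left out. Likewise the *SNAI2* to *ZEB1* ratio ranged from -0.0431 (without WT replicate 2) to 0.273. With a mean of at least 2 FPKM *CDH2* was not tested, and its log2 fold change was 1.66 at a pseudocount of 0.1, 0.99 at a pseudocount of 1 and 0.54 with library weights. *FN1* was at 2.21 with library weights (adjusted p = 0.0935 with limma; over all its alternatives 0.0935 to 0.897). With median-of-ratios scaling *CDH3* was at 0.07, *EPCAM* at 0.15, *ESRP1* at -0.36 and *CDH1* at -0.39, and the adjusted p of *CDH1* was between 0.201 and 0.794 over its alternatives. The cause of these shifts was not tested.

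With the replicate number as a block, 0 genes were called, and the adjusted p of *CDH2* was 0.265. A balanced block cannot change the mean difference of a ratio, and the exact p over sign changes of the 3 same-numbered differences, which cannot go below 0.25, was 0.25 for *CDH1* to *CDH3* and *CDH1* to *VIM*, 0.5 for *CDH1* to *CDH2* and 0.75 for *SNAI2* to *ZEB1*. The deviations of same-numbered libraries from their group means had r = -0.21, 0.22 and 0.05 for numbers 1, 2 and 3. Libraries of different numbers had r between -0.37 and 0.29. So few pairs cannot show whether same-numbered libraries shared a culture or a preparation, and the labels give only the number.

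At this depth *VIM* rests on at most about 3 fragments and *ZEB1* on at most about 7 if 1 step is 1 fragment. On the length of the MANE Select transcripts these would be about 5 and 16. Differences between the genotypes in these genes were not detectable.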
